A study of Cavia porcellus with 9 samples.

Results

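The collagens, the matrix metalloproteinases, the tissue inhibitors of metalloproteinases (TIMPs) and the ADAMTS proteases were examined in guinea pig retina after rearing under green, blue or white light. Members were taken by gene symbol (Col, Mmp, Timp and Adamts followed by their numbers) from a deposited table of 19962 genes, which holds 88 of them. Of these, 75 passed a filter on low counts set over the 3 light groups, among 15469 genes that passed it in all. The 75 comprise 42 of 44 collagen genes, 11 of 21 matrix metalloproteinases, 3 of 4 TIMPs and 19 of 19 ADAMTS genes. Col6a3 had 40 counts and Col21a1 and Timp4 had 13 each over all libraries, and these genes fell below the filter. Mmp13, Mmp25, Mmp20, Mmp3 and Mmp7 also fell below it, with between 5 and 38 counts, and Mmp8, Mmp10, Mmp12, Mmp21 and Mmp27 had no count in any library. A gene passes such a filter more easily when it is high in a group, so the counts given below describe the 75 genes that passed and support nothing about the 88.

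The animals were male tri-color guinea pigs of the Dunkin-Hartley strain, obtained at 2 weeks of age and kept on a cycle of 12 hours of light per day. Rearing in green, blue or white light lasted 8 weeks, and retinas were taken at 12 weeks of age from each group. The labels give no genetic change and no drug for any group, and white light is the reference. Each light has 3 RNA-seq libraries, numbered 1 to 3 here in order of deposition, and in each light 2 of the 3 carry the same animal number: green 1 and 2 (animal 11), blue 2 and 3 (animal 32) and white 1 and 2 (animal 6). The titles of green 1 and 2 also name the same eye, unlike the other pairs, which are the 2 eyes of an animal number, so green may hold material of only 2 eyes. The titles of green 1 and white 3 carry the suffix -B, which no source used here explains. This suffix is all that sets the title of green 1 apart from that of green 2. Since p-values below count each library as a replicate, they rest on library-to-library spread, part of which lies between samples of an animal. The series title concerns wavelength and refractive development, that is, how the growing eye matches its length to its optics.

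Collagens are triple-helical proteins of the extracellular matrix. Fibril-forming collagens build the cables of sclera and vitreous, network-forming collagens build basement membranes such as the inner limiting membrane and Bruch's membrane, and other collagens decorate or anchor these structures. Matrix metalloproteinases and ADAMTS proteases are zinc enzymes that cut matrix proteins or trim their precursors, and TIMPs bind and block them. Remodelling of the matrix by these proteins is best known from the sclera, the outer coat whose stretch sets eye length. The retina itself holds few collagen fibrils, and its collagens lie mainly in the basement membranes at its borders.

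Library totals ran from 62155041 to 74979806 counts. Levels are given as CPM (counts per 1e+06 counts) scaled for library composition, and a gene with no count in a library could have a level of up to 0.0385 to 0.0483 CPM there (3 counts), counting error only. CPM is not corrected for transcript length, so levels are compared between libraries and not between genes. The summed level of 12 photoreceptor genes lay between 69895 and 90586 CPM, so the label retina was borne out. Genes of neighbouring tissues were present too. The summed level of 17 pigment epithelium genes ran from 661 to 1178 CPM in green, 934 to 1121 CPM in blue and 700.1 to 1136 CPM in white, with none below 0.1 CPM on average. Lens genes (14) summed to 80.7 to 101 CPM in green, 53.9 to 94.0 CPM in blue and 32.4 to 75.6 CPM in white. Genes of choroidal and scleral fibroblasts (14) summed to 72.8 to 125 CPM in green, 80.9 to 119 CPM in blue and 86.1 to 124 CPM in white, and the fibroblast genes Dpt, Fap and Twist2 lay below 0.1 CPM on average. Endothelial genes (16, of which 1 had no count and Tie1, Cldn5, Emcn, Erg and Sox17 lay below 0.1 CPM) summed to 409 to 414 CPM in green, 391 to 515 CPM in blue and 484 to 557 CPM in white. Green lay wholly above white for the lens sum and wholly below it for the endothelial sum, in which the gene Flt1 weighed heavily. Flt1 alone was at 203, 249 and 218 CPM in green libraries 1 to 3 and at 387, 374 and 299 CPM in white. Kdr, also in the list, overlapped, at 165, 124 and 149 CPM in green and at 126, 127 and 139 CPM in white. As a mean of log2 levels relative to each gene's mean over libraries, the lens list stayed apart. The endothelial list then overlapped, at 0.12, -0.67 and 0.10 in green and -0.05, -0.31 and 0.10 in white. Of its 11 genes tested, 4 were higher and 7 lower in green than white. Green lay wholly below blue for the sums of 10 Müller glia genes (10356 to 11264 CPM against 11292 to 12772 CPM) and of 5 astrocyte genes (88.3 to 114 CPM against 118 to 132 CPM), the astrocyte gene Pax2 lying below 0.1 CPM. White overlapped both lights in these glial sums, at 10208 to 12158 and 99.6 to 125 CPM. By the mean of log2 levels green again lay wholly below blue for the Müller glia genes. The astrocyte genes then overlapped, at 0.01, 0.07 and 0.17 in green and 0.20, -0.28 and 0.0047 in blue. Of the 4 astrocyte genes tested, 2 were higher and 2 lower in green than blue. The part of the lens, endothelial and glial genes in the results below was not tested.

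Under green light, collagen and ADAMTS genes were more often above their white-light level than genes at large, but none passed the test across all genes. The fitted difference of green minus white was above 0 for 50 of the 75 genes (66.7%), against 52.4% of all genes tested, and its median was 0.14 on the log2 scale against 0.01 for all genes. At an unadjusted p under 0.05 there were 13 genes (17.3%; 5.81% of all genes), 12 of them higher (16%; 3.52% of all genes) and 1 lower (1.33%; 2.29% of all genes). After Benjamini-Hochberg adjustment over all genes, edgeR's quasi-likelihood test called 0 of the 75 (0.00646% of all genes) and DESeq2 called 0 (0.155% of all genes). The libraries of the groups did not overlap for 10 genes (13.3%; 10.1% of all genes), of which 9 were higher in green and 1 lower. The count of 13 moved with single libraries: without green library 1 it was 6, of which 4 were higher and 2 lower (7.89%; 5.17% of all genes), so most of the excess over all genes was gone. Without green library 2 it was 23 (30.3%; 5.13% of all genes) and without white library 1 it was 8 (10.7%; 5.31% of all genes). In bulk tissue, fewer cells of a type and less RNA per cell cannot be told apart, and this holds for every level given here.

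The 6 genes of smallest p in this comparison were 4 ADAMTS proteases and 2 collagens, all higher in green. Adamts3, which trims procollagen, differed by 0.33 ± 0.08 (log2 ± SE, edgeR adjusted p = 0.717), and DESeq2 gave it an adjusted p of 0.0808. For Adamts18, a protease needed for normal eye development, the difference was 0.77 ± 0.21 (edgeR adjusted p = 0.768). Adamts13, which cuts von Willebrand factor, was at 0.71 ± 0.22 (edgeR adjusted p = 0.814) and Adamts10, a partner of fibrillin microfibrils, at 0.45 ± 0.15 (edgeR adjusted p = 0.837). Col19a1, a fibril-associated collagen, was at 0.81 ± 0.26 (edgeR adjusted p = 0.818). Col28a1, a collagen with von Willebrand factor domains, had the widest of these differences, at 1.40 ± 0.46 (edgeR adjusted p = 0.837). The gene lower at an unadjusted p under 0.05 was Col26a1.

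Under blue light the collagen and protease genes lay close to the genes at large in direction and in counts at a small p, but not in size of difference. Without regard to sign, the median log2 difference of blue minus white was 0.19 for the 75 genes and 0.10 for all genes. For green minus white these values were 0.22 and 0.11. The 75 genes also had a wider spread within a light (median SD 0.29 against 0.17 on the log2 scale). Their median level was lower, at 5.76 against 19.8 CPM. The part of spread and level in the size of the differences was not tested. The fitted difference of blue minus white was above 0 for 38 of the 75 genes (50.7%; 51.5% of all genes), with a median of 0.01 on the log2 scale against 0.0048 for all genes. At an unadjusted p under 0.05 there were 4 genes (5.33%; 4.45% of all genes), 3 higher (4%; 2.47% of all genes) and 1 lower (1.33%; 1.98% of all genes), which is near the share among all genes. edgeR called 0 of the 75 after adjustment (0.00646% of all genes) and DESeq2 called 0 (0.181% of all genes). Groups did not overlap for 10 genes (13.3%; 9.9% of all genes), 8 of them higher in blue and 2 lower. Without blue library 3 the count of 4 became 2 (2.63%; 2.51% of all genes), and without white library 2 it became 8 (10.5%; 7.1% of all genes).

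Mmp17, a metalloproteinase held to the membrane by a lipid anchor, led this comparison at 0.36 ± 0.11 (log2 ± SE, edgeR adjusted p = 0.935). Col15a1, a basement membrane collagen found around vessels and muscle, was at 2.00 ± 0.60 (edgeR adjusted p = 0.935) from very few counts. Adamts3 was at 0.23 ± 0.08 (edgeR adjusted p = 0.992), so it stood above white light in both coloured lights, in comparisons that share the white libraries. Adamts5, which cuts aggrecan and versican, was the one gene lower at an unadjusted p under 0.05, at -0.47 ± 0.21 (edgeR adjusted p = 1). Adamts17, a relative of Adamts10, was at 0.35 ± 0.16 and Col9a1, which sits on the fibrils of the vitreous, at 0.26 ± 0.12, neither with an unadjusted p under 0.05.

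Green against blue was the comparison with most genes at a small p, and all of them stood higher in green. At an unadjusted p under 0.05 there were 15 of 75 genes (20%; 7.18% of all genes), 15 higher (20%; 4.11% of all genes) and 0 lower (0%; 3.06% of all genes). The fitted difference of green minus blue was above 0 for 48 genes (64%; 49.4% of all genes), with a median of 0.10 on the log2 scale against -0.0025 for all genes. edgeR called 0 after adjustment (0% of all genes) and DESeq2 called 0 (0.31% of all genes), which gave no adjusted p for 16 of the 75, Col28a1 among them. Libraries did not overlap for 15 genes (20%; 14.2% of all genes), 13 of them higher in green and 2 lower. The count of 15 became 10 without green library 1 (13.2%; 6.28% of all genes), 7 without blue library 2 (9.21%; 5.12% of all genes) and 7 without blue library 3 (9.21%; 3.77% of all genes). Without both libraries titled -B it became 10 (13.3%; 6.66% of all genes). With the mean log2 level of the pigment epithelium genes as a covariate it became 3 (4% of the 75; 3.23% of all genes), and the count for green minus white became 6 (8%; 3.36% of all genes).

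The 6 genes of smallest p were 4 collagens and 2 proteases. Col28a1 was at 1.61 ± 0.47 (log2 ± SE, edgeR adjusted p = 0.587) and Col19a1 at 0.89 ± 0.26 (edgeR adjusted p = 0.589). The protease Adamts13 was next, at 0.69 ± 0.22 (edgeR adjusted p = 0.621), then Col27a1, a fibrillar collagen of cartilage, at 0.57 ± 0.18 (edgeR adjusted p = 0.621). Adamts10 was at 0.43 ± 0.15 (edgeR adjusted p = 0.654) and Col6a2, a chain of the beaded filaments around cells, at 0.52 ± 0.19 (edgeR adjusted p = 0.654). Adamts10, Adamts13, Col19a1, Col1a1, Col27a1, Col28a1 and Col6a1 stood higher in green at an unadjusted p under 0.05 against both white and blue, in comparisons that share the green libraries.

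Tested jointly for any difference between lights, the 75 genes gave 12 genes at an unadjusted p under 0.05 (16%; 5.94% of all genes). After adjustment edgeR called 0 of the 75 (0.00646% of all genes), with a smallest adjusted p of 0.666, and DESeq2 called 0 (0.53% of all genes). Without green library 1 the count of 12 became 5, near the share of all genes (6.58%; 5.54% of all genes). It was 21 without green library 2 (27.6%; 5.34% of all genes) and 7 without blue library 2 (9.21%; 4.54% of all genes).

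**Figure D1:**
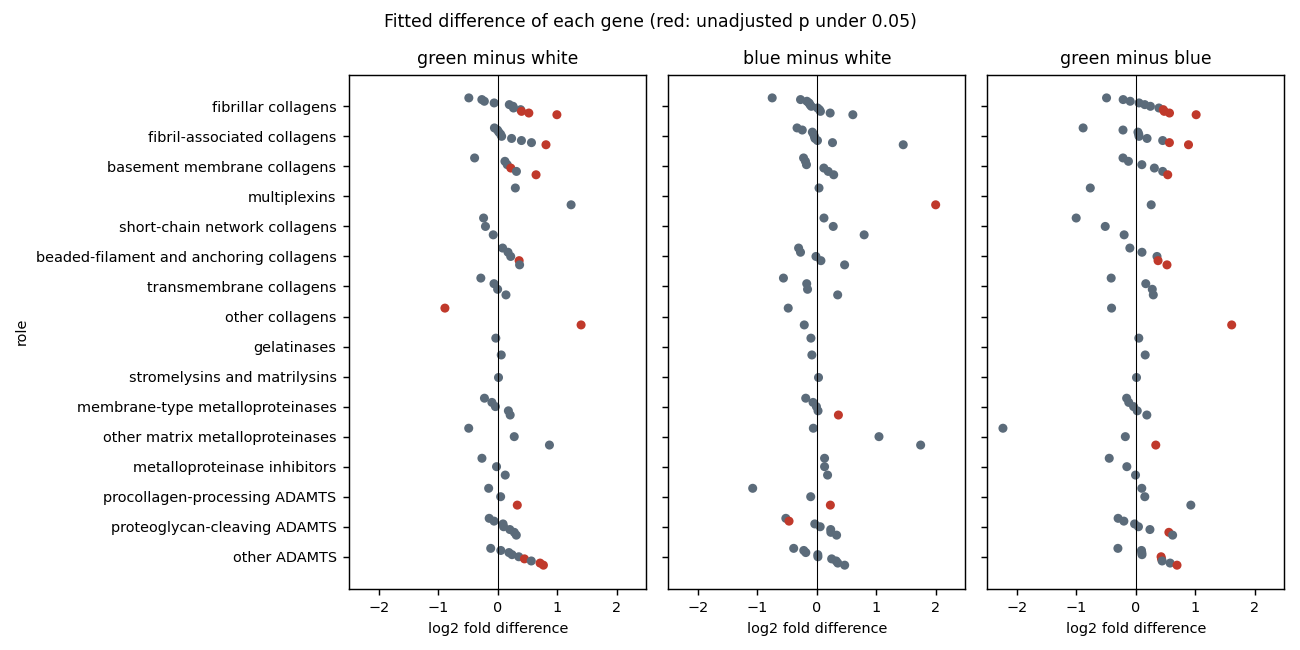
Fitted log2 difference of each of the 75 genes in the 3 comparisons (x axis), by role (y axis), each point a gene and red where the unadjusted p was under 0.05. Red points lie to the right of 0 for 12 of 13 genes in green minus white and 15 of 15 in green minus blue, and the far left point in green minus blue is Mmp19, which had 0 counts in 2 green libraries.

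Fibril-forming collagens were measured as 11 genes. In green minus white 7 lay above 0 and in green minus blue 8, with medians of 0.26 and 0.24 on the log2 scale (52.4% and 49.4% of all genes lay above 0). Unadjusted p under 0.05 was reached by 3 of them in green minus white, 4 in green minus blue and 0 in blue minus white (5.81%, 7.18% and 4.45% of all genes). Col2a1, the main collagen of the vitreous, was at 126, 101 and 148 CPM in green libraries 1 to 3, 139.9, 106 and 115 CPM in blue and at 110.2, 146 and 135 CPM in white. The 3 lights overlapped throughout for it, with green libraries at both the low and the high end. Col11a1, which forms mixed fibrils with Col2a1, was at 73.7, 46.9 and 53.4 CPM in green, at 51.2, 35.5 and 38.3 CPM in blue and at 49.1, 36.4 and 47.9 CPM in white. Col27a1 was at 49.0, 30.4 and 31.1 CPM in green, at 27.8, 24.3 and 22.6 CPM in blue and at 29.2, 24.3 and 30.3 CPM in white. Green library 1 was the highest of the 9 for both genes. The other green libraries exceeded all of blue and white for Col27a1 only by a narrow margin.

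Col5a1, which limits the width of collagen fibrils, was at 19.3, 15.7 and 21.2 CPM in green, at 15.7, 16.3 and 15.4 CPM in blue and at 16.9, 13.8 and 16.3 CPM in white. Its relatives Col5a2 and Col5a3 varied more between libraries. Col5a2 was at 3.99, 3.40 and 1.48 CPM in green, at 1.74, 4.41 and 6.35 CPM in blue and at 4.85, 4.02 and 1.82 CPM in white. The low libraries were green 3, blue 1 and white 3, one in each light, and the next library up stood 1.87 times above them. Col5a3 was at 2.45, 2.77 and 2.07 CPM in green, at 2.16, 0.624 and 0.822 CPM in blue and at 1.78, 2.48 and 1.80 CPM in white. Both of its low libraries came from animal 32, and the third blue library lay within the range of green and white. Its means were 2.43 ± 0.353 CPM in green and 1.20 ± 0.836 CPM in blue (SD over 3 libraries), and this difference had an unadjusted p under 0.05. Col1a2, a chain of the collagen of sclera and tendon, was lowest in green 2 (4.05 CPM) and blue 2 (5.38 CPM) and at 9.21 CPM or more elsewhere. The summed fibroblast genes were lowest in the same libraries (72.8 and 80.9 CPM), and their part in the result was not tested. Col1a2, which is not among the genes chosen by rule, is given because of this.

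Collagens that ride on fibrils numbered 9, with 7 above 0 in green minus white and 7 in green minus blue (52.4% and 49.4% of all genes). Col9a1, Col9a2 and Col9a3, chains of a single molecule, coat the fibrils of the vitreous. Col9a1 was at 184, 155 and 209 CPM in green, at 228, 187 and 221 CPM in blue and at 179, 195 and 156 CPM in white. The other chains were highest on average in green and not in blue. Col9a2 was at 69.0, 78.3 and 81.7 CPM in green, at 74.3, 77.5 and 68.8 CPM in blue and at 72.1, 90.6 and 56.2 CPM in white. Col9a3 was at 67.2, 55.4 and 79.0 CPM in green, at 78.4, 59.1 and 57.5 CPM in blue and at 54.1, 74.9 and 70.3 CPM in white. All 3 chains overlapped between every pair of lights. Col22a1, a collagen of tissue junctions, was as even, at 25.8, 22.1 and 21.5 CPM in green, at 26.3, 22.2 and 19.2 CPM in blue and at 22.9, 25.6 and 21.2 CPM in white. Col19a1 was at 7.68, 4.29 and 4.54 CPM in green, at 3.18, 2.66 and 3.10 CPM in blue and at 2.89, 2.51 and 4.02 CPM in white. Each green library stood above each blue and each white one, and green library 1 stood 1.69 times above the next. Without it, the green minus white difference of Col19a1 was 0.49 on the log2 scale.

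Basement membrane collagens comprise 6 chains of collagen IV. Col4a3, Col4a4 and Col4a5 form the network known from the kidney filter and the inner limiting membrane, and Col4a2 belongs to the network found in nearly all basement membranes. Col4a3 was at 66.5, 51.5 and 44.8 CPM in green, at 39.6, 38.3 and 34.4 CPM in blue and at 50.2, 30.4 and 50.5 CPM in white. Green lay wholly above blue for this gene and overlapped white. Col4a4 was at 14.1, 12.7 and 10.5 CPM in green, at 10.7, 8.77 and 10.6 CPM in blue and at 12.9, 10.4 and 10.9 CPM in white. Col4a5 was at 16.5, 12.1 and 13.5 CPM in green, at 16.4, 14.96 and 14.5 CPM in blue and at 10.8, 10.2 and 16.7 CPM in white. For both genes every pair of lights overlapped. Col4a2 was at 28.8, 24.7 and 30.1 CPM in green, at 26.8, 26.2 and 24.9 CPM in blue and at 24.3, 22.7 and 24.8 CPM in white. White was lowest on average (23.9 ± 1.13 CPM, SD over 3 libraries, against 27.8 ± 2.82 CPM in green and, in blue, 26.0 ± 0.958 CPM). Blue lay wholly above white only by a narrow margin, at 24.93 CPM in blue 3 against 24.84 CPM in white 3.

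Col18a1, whose tail is cut off as endostatin and whose loss disturbs the vitreous and retina, is one of 2 multiplexins. It was at 145, 87.4 and 181 CPM in green, at 126, 106 and 114 CPM in blue and at 94.3, 121 and 122 CPM in white. Green held its highest and its lowest library. The other, Col15a1, was at 0.410, 0.249 and 0.128 CPM in green, at 0.449, 0.461 and 0.440 CPM in blue and at 0.118, 0.0722 and 0.145 CPM in white. Blue lay above both other lights, but these levels stand for 30 to 34 counts in the blue libraries and 5 to 9 in the white ones.

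The short-chain collagens Col8a1 and Col8a2 build hexagonal networks in Descemet's membrane and Bruch's membrane. Col8a1 was at 20.2, 38.5 and 8.56 CPM in green, at 27.9, 32.1 and 36.1 CPM in blue and at 24.3, 25.9 and 29.1 CPM in white. Col8a2 was at 4.72, 20.3 and 2.71 CPM in green, at 15.2, 18.6 and 21.7 CPM in blue and at 7.75, 17.2 and 6.997 CPM in white. Green held the highest and the lowest library for Col8a1, and the lowest ones for Col8a2. Col10a1, known from hypertrophic cartilage, was at 0.577, 0.343 and 0.428 CPM in green, at 0.393, 0.556 and 0.602 CPM in blue and at 0.236, 0.390 and 0.804 CPM in white, so white held both ends of its range.

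Col8a2 and Timp3 were low where pigment epithelium genes were low, a share near that among all genes. Rpe65, the isomerase of the visual cycle made in that epithelium, was at 14.4, 102 and 7.76 CPM in green, at 61.0, 63.8 and 98.6 CPM in blue and at 44.9, 144 and 15.1 CPM in white. By the mean log2 level of the pigment epithelium list, the 4 lowest libraries were green 3, green 1, white 3 and white 1. The same 4 were the lowest for Col8a2 and Timp3 (2.67% of the 75 genes, near the 1.86% of all genes). They were the highest for Adamts5 and Col5a1 (2.67%, against 1.18% of all genes). For Col5a1 the margin was narrow, at 16.295 CPM in white 3 against 16.287 CPM in blue 2. Col8a1 did not follow this split, since white 3 (29.1 CPM) stood above blue 1 (27.9 CPM) and white 2 (25.9 CPM). No blue library was among the 4 lowest in pigment epithelium genes. The part of the epithelium in these levels was not tested beyond the fit with that level as a covariate.

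**Figure D2:**
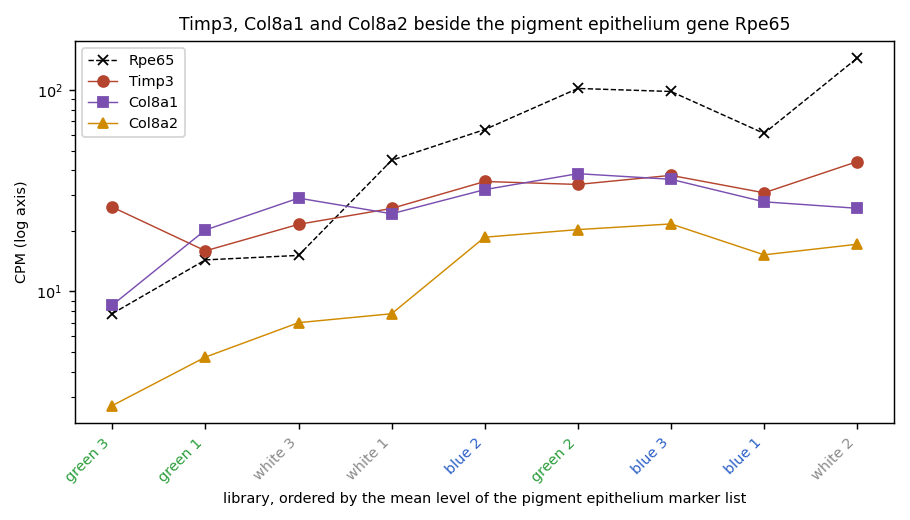
Levels of Rpe65, Timp3, Col8a1 and Col8a2 in the 9 libraries (y axis, CPM on a log scale), with libraries ordered on the x axis by the mean log2 level of the pigment epithelium genes and coloured by light. Col8a2 stood at 2.71 to 7.75 CPM in the 4 libraries on the left and at 15.2 to 21.7 CPM in the 5 on the right. Col8a1 was not split in this way, with white 3 on the left at 29.1 CPM and white 2 on the right at 25.9 CPM.

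Collagen VI forms beaded filaments around cells and collagen VII anchors epithelia. Col6a1 was at 21.8, 14.2 and 15.9 CPM in green, at 14.9, 12.1 and 13.1 CPM in blue and at 12.3, 13.9 and 14.3 CPM in white. Its partner Col6a2 was at 7.13, 5.14 and 4.59 CPM in green, at 3.89, 3.73 and 4.12 CPM in blue and at 5.22, 4.35 and 4.95 CPM in white. Green 1 led in both genes, and blue lay wholly below green and wholly below white for Col6a2. Col6a6, a longer chain of the same family, was at 3.92, 2.24 and 2.85 CPM in green, at 3.03, 2.75 and 2.63 CPM in blue and at 2.80, 2.34 and 2.88 CPM in white. Col7a1 was at 14.3, 7.39 and 17.2 CPM in green, at 13.4, 8.42 and 8.61 CPM in blue and at 12.0, 11.2 and 13.6 CPM in white. For Col6a6 and Col7a1 the 3 lights overlapped, and green held the highest and the lowest library of each.

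Transmembrane collagens (4 genes) gave 0 at an unadjusted p under 0.05 in any comparison. Col13a1, a collagen of the neuromuscular junction, was at 4.82, 4.41 and 4.89 CPM in green, at 3.97, 3.95 and 3.61 CPM in blue and at 4.80, 4.45 and 3.59 CPM in white. Green lay wholly above blue for it. Col25a1, made by neurons, was at 3.32, 2.40 and 2.21 CPM in green, at 2.55, 2.14 and 2.38 CPM in blue and at 2.89, 1.78 and 3.30 CPM in white. Col23a1 was at 1.69, 0.608 and 0.984 CPM in green, at 0.898, 0.637 and 1.19 CPM in blue and at 1.43, 0.968 and 1.62 CPM in white. Both overlapped in every comparison. Col17a1, a collagen of hemidesmosomes, was at 0.539, 0.561 and 0.799 CPM in green, at 1.11, 0.895 and 0.528 CPM in blue and at 0.427, 1.04 and 0.515 CPM in white, with no light set apart.

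Col28a1 and Col26a1 differed in opposite directions between green and white. Col28a1 was at 2.98, 2.24 and 1.06 CPM in green, at 0.954, 0.393 and 0.704 CPM in blue and at 0.516, 0.737 and 1.13 CPM in white. The 2 green libraries of animal 11 stood 1.99 times or more above all others, and green 3 lay within the range of white. Col26a1 was at 0.847, 0.904 and 0.385 CPM in green, at 1.11, 0.949 and 0.778 CPM in blue and at 1.44, 1.52 and 0.997 CPM in white, so green lay wholly below white and overlapped blue.

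**Figure D3:**
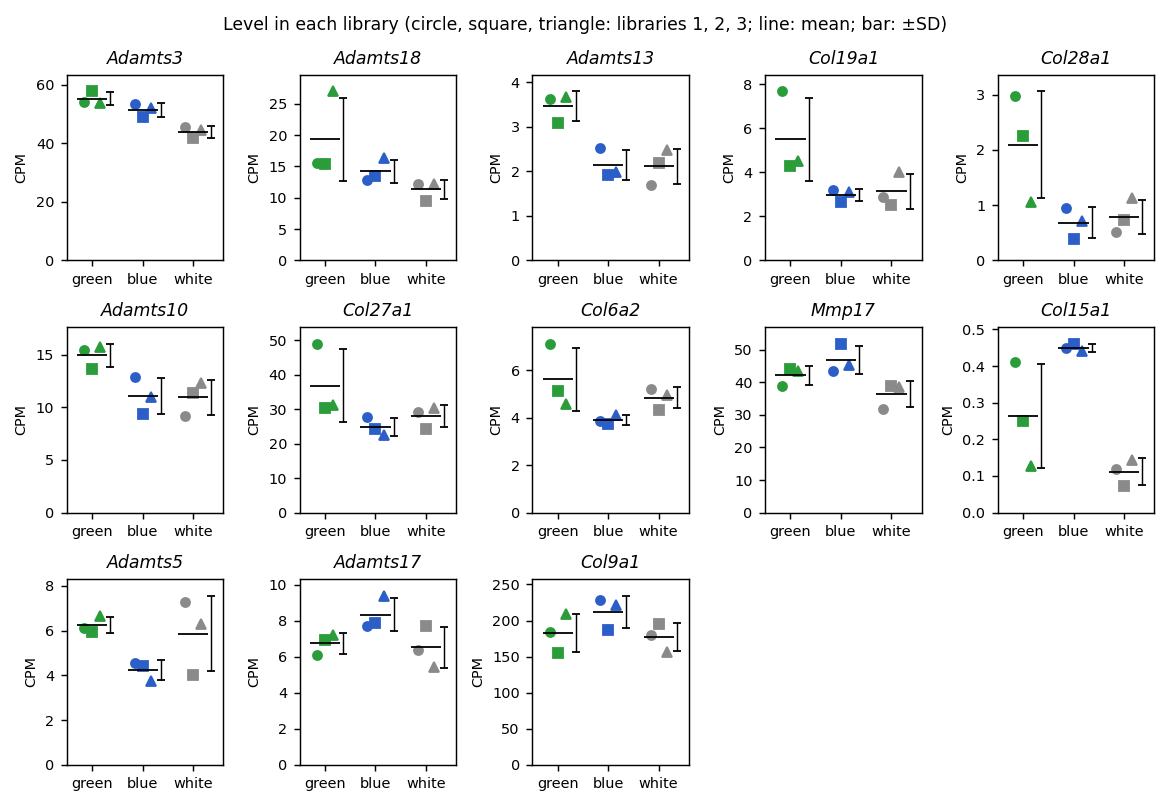
Level in each library (y axis, CPM from 0) under green, blue and white light (x axis) for the 13 genes that were among the 6 of smallest p in a comparison, with the mean and SD of the 3 libraries of each light. Adamts3 is ordered green, blue, white without overlap, while in Col19a1 and Col27a1 green library 1 (circle) stands well above the rest.

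Of the 11 matrix metalloproteinases, 0 had an unadjusted p under 0.05 in green minus white, 1 in blue minus white (Mmp17) and 1 in green minus blue (Mmp23b), against 5.81%, 4.45% and 7.18% of all genes. The gelatinases Mmp2 and Mmp9 cut denatured collagen and collagen IV. Mmp2 was at 12.5, 15.7 and 14.3 CPM in green, at 11.6, 12.7 and 13.8 CPM in blue and at 12.3, 14.3 and 14.2 CPM in white. Mmp9 was at 4.23, 3.57 and 2.38 CPM in green, at 3.18, 3.43 and 3.23 CPM in blue and at 3.48, 3.68 and 3.27 CPM in white. Mean levels of Mmp2 were 14.2 ± 1.59, 12.7 ± 1.12 and 13.6 ± 1.16 CPM in green, blue and white (SD over 3 libraries), differences within the spread of a light. Neither gelatinase reached an unadjusted p under 0.05. Of the collagenases, which make the first cut in a collagen fibril, Mmp8 had no count and Mmp13 had 16 counts in all. Mmp11, a stromelysin secreted in active form, was at 1.01, 1.40 and 1.20 CPM in green, at 1.09, 1.27 and 1.25 CPM in blue and at 1.002, 1.20 and 1.38 CPM in white, with means of 1.20, 1.21 and 1.19 CPM in green, blue and white.

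Membrane-bound metalloproteinases were the class of proteases with the least spread within a light (5 genes, median SD 0.13 on the log2 scale). Mmp14, which activates Mmp2 at the cell surface, was at 67.5, 64.5 and 75.4 CPM in green, at 73.2, 76.9 and 75.1 CPM in blue and at 68.6, 80.4 and 73.2 CPM in white. Mmp24, a protease of neurons, was at 45.9, 52.6 and 49.4 CPM in green, at 46.8, 48.5 and 50.2 CPM in blue and at 48.8, 53.8 and 49.5 CPM in white. Both overlapped in every comparison. Mmp17 was at 38.8, 44.1 and 43.5 CPM in green, at 43.5, 51.9 and 45.3 CPM in blue and at 31.9, 38.9 and 38.5 CPM in white. Blue lay wholly above white for Mmp17, with green between them and overlapping both. Mmp15 was at 27.1, 28.8 and 22.8 CPM in green, at 26.4, 28.5 and 25.9 CPM in blue and at 26.8, 28.6 and 36.7 CPM in white, with white 3 alone above the rest.

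The other metalloproteinases were less even. Mmp23b was at 8.50, 8.67 and 8.96 CPM in green, at 7.81, 6.86 and 6.03 CPM in blue and at 7.25, 6.91 and 7.42 CPM in white, so that green lay above every other library. Its green minus blue difference had an unadjusted p under 0.05. Mmp28, an epithelial protease called epilysin, was at 0.423, 2.91 and 2.33 CPM in green, at 0.519, 3.13 and 2.73 CPM in blue and at 1.31, 1.29 and 0.483 CPM in white. Its low libraries were green 1, blue 1 and white 3, one in each light, and the next stood 2.48 times higher, the widest such gap among the genes with a count in every library. Mmp19 was at 0.141, 0 and 0 CPM in green, at 0.224, 0 and 0.499 CPM in blue and at 0, 0.130 and 0.0804 CPM in white. Its counts of 0 to 34 per library allow no statement on light.

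No inhibitor had an unadjusted p under 0.05 in any comparison. Timp2, which both blocks metalloproteinases and helps Mmp14 to activate Mmp2, was at 265, 277 and 288 CPM in green, at 285, 317 and 319 CPM in blue and at 274, 305 and 262 CPM in white. Both libraries of animal 32 were the highest. Timp3, which binds to Bruch's membrane and also blocks ADAMTS proteases, was at 15.9, 34.03 and 26.3 CPM in green, at 30.9, 35.2 and 37.7 CPM in blue and at 25.9, 44.2 and 21.6 CPM in white. Timp1 was at 10.1, 9.65 and 13.4 CPM in green, at 10.8, 10.3 and 12.1 CPM in blue and at 9.11, 12.7 and 8.49 CPM in white. All 3 overlapped in every comparison, and the smallest adjusted p among them was 0.734 (edgeR, green minus blue).

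Procollagen is trimmed at its start by 3 ADAMTS proteases. Adamts3 was at 54.1, 57.7 and 53.6 CPM in green, at 53.5, 48.8 and 52.1 CPM in blue and at 45.7, 41.7 and 44.3 CPM in white. Every green and blue library lay above every white one, and green lay above blue by a margin smaller than the spread of a light. Means were 55.1 ± 2.22, 51.4 ± 2.40 and 43.9 ± 2.02 CPM in green, blue and white (SD over 3 libraries). Over the other settings tried, its green minus white difference ranged from 0.29 to 0.35 on the log2 scale. Adamts2 was at 3.32, 3.49 and 2.91 CPM in green, at 3.14, 2.93 and 2.68 CPM in blue and at 3.70, 2.73 and 2.98 CPM in white. Adamts14 was at 0.103, 0.187 and 0.357 CPM in green, at 0.0561, 0.163 and 0.117 CPM in blue and at 0.177, 0.173 and 0.370 CPM in white. Neither had an unadjusted p under 0.05 in any comparison.

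Proteases that cut the proteoglycans aggrecan and versican numbered 7. Adamts1 was at 38.0, 34.9 and 37.2 CPM in green, at 48.3, 37.9 and 40.4 CPM in blue and at 41.3, 45.8 and 34.7 CPM in white. Adamts15 was at 25.8, 19.5 and 24.0 CPM in green, at 20.6, 20.4 and 17.9 CPM in blue and at 17.7, 20.5 and 22.1 CPM in white. Both overlapped in every comparison. Adamts5 was at 6.12, 5.95 and 6.63 CPM in green, at 4.57, 4.41 and 3.74 CPM in blue and at 7.29, 4.002 and 6.31 CPM in white. Blue lay wholly below green for Adamts5 but held white library 2 within its range. Adamts9 was at 5.85, 4.40 and 3.98 CPM in green, at 4.74, 4.69 and 4.37 CPM in blue and at 3.65, 2.64 and 5.45 CPM in white. White 1 and white 2 stood at the low end, and green 1 and white 3 at the high end.

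Among the 9 remaining ADAMTS genes, 8 lay above 0 in green minus white and 8 in green minus blue, with medians of 0.35 and 0.42 on the log2 scale (52.4% and 49.4% of all genes lay above 0). In each of these comparisons 3 reached an unadjusted p under 0.05 (5.81% and 7.18% of all genes). Adamts10 was at 15.4, 13.6 and 15.7 CPM in green, at 12.8, 9.38 and 11.0 CPM in blue and at 9.15, 11.3 and 12.3 CPM in white. Adamts13 was at 3.63, 3.09 and 3.68 CPM in green, at 2.53, 1.91 and 2.00 CPM in blue and at 1.69, 2.18 and 2.48 CPM in white. In both genes all green libraries lay above all others, while blue and white overlapped. Adamts7, which cuts a cartilage matrix protein, was at 8.43, 8.29 and 8.70 CPM in green, at 7.11, 5.91 and 5.91 CPM in blue and at 6.09, 7.12 and 8.33 CPM in white. Adamts18 was at 15.6, 15.4 and 27.0 CPM in green, at 12.8, 13.5 and 16.3 CPM in blue and at 12.3, 9.56 and 12.2 CPM in white. Green and blue both lay above white for Adamts18, and green library 3 stood 1.65 times above the next; without it the green minus white difference was 0.45 on the log2 scale. Adamts17 was at 6.11, 6.92 and 7.22 CPM in green, at 7.72, 7.87 and 9.37 CPM in blue and at 6.38, 7.71 and 5.44 CPM in white. Blue stood highest for it, above both other lights by less than the spread of a light.

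**Figure D4:**
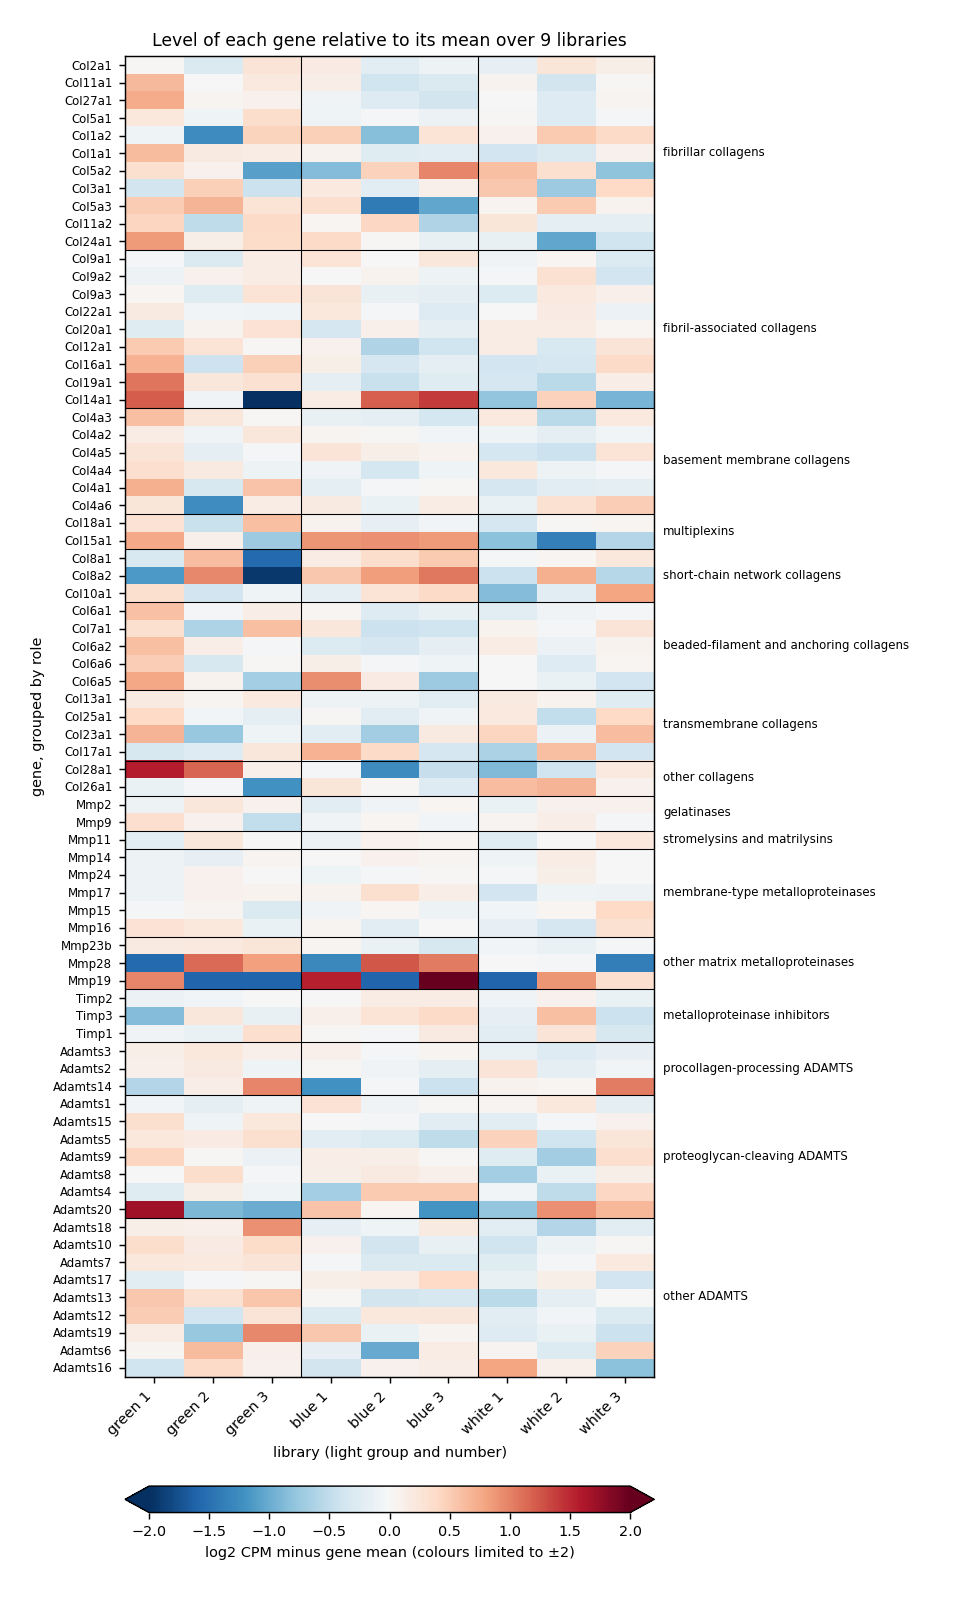
Level of the 75 genes (rows, grouped by role) in the 9 libraries (columns), as log2 CPM minus the gene's mean over libraries, red above and blue below the mean, with colours limited to 2 either way. Green library 1 shows the most red, being the highest of the 9 for 22 genes, a count not made over all genes.

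These genes differed more between libraries than genes at large. The median range over the 9 libraries was 1.03 on the log2 scale for the 75 genes and 0.55 for all genes, and the median SD within a light was 0.29 against 0.17. Among genes at 10 CPM or more the median range was 0.68 for 31 of the 75 genes and 0.41 for 9806 genes. Short-chain network collagens had a median range of 2.16, while that of membrane-type metalloproteinases was 0.64. Libraries of a light differed nearly as much as libraries of different lights. The median absolute log2 difference between libraries averaged 0.28 over the 3 pairs with the same animal number, 0.29 over the 6 other pairs of a light and 0.32 over the 27 pairs between lights.

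Single libraries and animals stood out. Green library 1 was the highest of the 9 for 22 of the 75 genes, green library 3 for 15, and each other library for 3 to 7. The mean deviation of the 75 genes from their own means was 0.22 on the log2 scale in green library 1 and between -0.13 and 0.04 in the others. Of the 12 genes higher in green than white at an unadjusted p under 0.05, 7 were highest in green 1, 4 in green 3 and 1 in green 2. These counts and the mean deviation were not computed over all genes, so they are not shown to be particular to the 75. Green 1 and 2 carry the same animal number, yet differed by a median of 0.40 on the log2 scale over the 75 genes, the most of any pair within a light. Green 1 stood apart over all genes too. It differed by 0.22 from green 2 and by 0.23 from green 3, the widest such differences within a light. Both libraries of animal 11 were the 2 highest of all for 5 genes (6.67%; 2.63% of all genes), namely Adamts3, Col12a1, Col1a1, Col28a1 and Col4a3, and the 2 lowest for 1 gene (1.33%; 5.11% of all genes). Both of animal 32 were the 2 lowest for 5 genes (6.67%; 3.18% of all genes), namely Adamts7, Col12a1, Col27a1, Col5a3 and Mmp23b, and the 2 highest for 4 genes (5.33%; 4.37% of all genes). Both of animal 6 were the 2 lowest for 6 genes (8%; 3.81% of all genes), namely Adamts8, Adamts9, Col15a1, Col1a1, Col4a2 and Col4a5, and the 2 highest for 1 gene (1.33%; 2.75% of all genes). With counts summed per animal number, 2 animals a light, 8 genes in green minus white and 12 in green minus blue had an unadjusted p under 0.05 (10.5% and 15.8%; 3.24% and 4.9% of all genes).

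**Figure D5:**
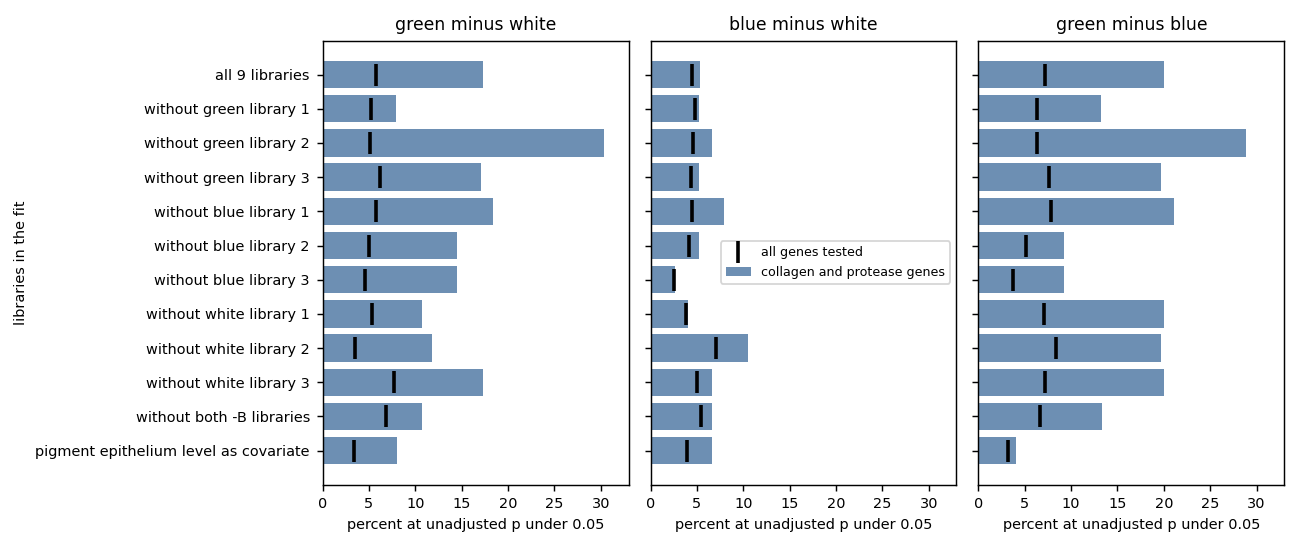
Share of the collagen and protease genes (bars) and of all genes tested (black ticks) at an unadjusted p under 0.05 (x axis, percent), in the fit of all 9 libraries and in fits without a library, without the 2 libraries titled -B or with the pigment epithelium level as a covariate (y axis). In green minus white the share ran from 7.89% without green library 1 to 30.3% without green library 2, and in green minus blue it was 4% with the covariate.

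Partners of these proteins were examined as lists. edgeR called 0 of their genes in any comparison after adjustment. The counts that follow are at an unadjusted p under 0.05, where 3.52% of all genes were higher and 2.29% lower in green than white, 2.47% and 1.98% in blue than white, and 4.11% and 3.06% in green than blue. Of 28 genes that fold, modify and cross-link collagen, 1 was higher than white in green at an unadjusted p under 0.05 (P4ha2, a prolyl hydroxylase) and 1 higher in green than blue (P3h3, another). Of 9 collagen receptors, Mrc2, which takes up collagen fragments, was lower in green than in white and in blue, at -0.68 and -0.92 on the log2 scale. Ddr1, a receptor kinase for collagen, was at -0.25 in blue minus white and 0.26 in green minus blue. Of 17 laminins and basement membrane partners, 2 were higher in green than white (Lama1 and Lama5) and 3 higher in green than blue (these and Pxdn), with 0 lower. Lama1, the laminin chain of the inner limiting membrane, was at 128, 104 and 152 CPM in green, at 63.7, 87.3 and 82.5 CPM in blue and at 70.7, 78.0 and 97.0 CPM in white. Green lay wholly above the other lights for Lama1, by 0.72 ± 0.16 (log2 ± SE) over blue, and DESeq2 called this difference (adjusted p = 0.0113) while edgeR did not (adjusted p = 0.518). Of 12 proteoglycans, Dcn was lower in green than white, from a level below 0.3 CPM in every library, and Acan lower in green than blue. Of 21 other regulators of matrix proteolysis, 2 were higher and 1 lower in green than white, 2 higher and 2 lower in blue than white, and 0 either way in green minus blue.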

How the data were processed

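Retinal RNA of 9 libraries, 3 per light, was sequenced as paired ends on an Illumina HiSeq 2500, per the labels' protocols. The authors deposited whole-number counts per gene, per the file headers. For these counts, how reads were aligned and assigned (tools, strand, build, annotation) was not stated in the sources used here, so reads of overlapping genes on opposite strands may be shared. Low counts gather at multiples of 4, and the fits were repeated on counts divided by 4.

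All 9 libraries entered a single edgeR 4.0.16 fit (R 4.3.3) with light as the only term, after filterByExpr (minimum count 10, minimum total 15) and TMM scaling. Quasi-likelihood tests gave 3 contrasts and a joint test, adjusted by Benjamini-Hochberg over all 15469 genes at 0.05. The SE of a log2 difference was derived from its size and F statistic. Scripts were tested on simulated data. DESeq2 1.42.0, limma 3.58.1 (voom), RLE scaling, no filter, the 6 libraries of the lights compared, counts summed per animal number, each library left out, both libraries titled -B left out, and the pigment epithelium level as a covariate served as alternatives. Library numbers pair nothing across lights.

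The genes, their roles, the lists of partners and the naming rule were chosen with earlier results of these data known. Levels per library are given for every TIMP tested, up to 4 genes per role with the highest mean CPM, the 6 of smallest p per contrast, any gene called, and the 6 with the widest range among those at 1 CPM or more. Differences with errors and adjusted p are given for the 6 of smallest p per contrast. 86 of the 88 symbols are in the RefSeq names table of the assembly mCavPor4.1, whose coordinates were not used.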

Additional observations from a re-analysis of the deposited data

How the results depend on the processing

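In all 71 alternative fits of the 3 contrasts and the joint test, 0 of these genes were called, and the smallest adjusted p among them was 0.0808 (DESeq2, Adamts3, green minus white). Among the edgeR fits it was 0.112, without green library 2. The 323 alternative values of the 18 differences given with an error kept their direction. Counts at an unadjusted p under 0.05 moved by over 1.5 times in 16 of 71 alternatives: they ran from 6 to 23 in green minus white, 2 to 8 in blue minus white, 3 to 22 in green minus blue and 5 to 21 in the joint test. Dividing counts by 4 left 13, 2 and 15 genes in the 3 contrasts (19.1%, 2.94% and 22.1%; 6.07%, 4.59% and 7.56% of all genes). Counts of genes without overlap ran from 10 to 27, 8 to 28 and 14 to 33, highest where a light kept 2 libraries or 2 animals. They were not recomputed for DESeq2, voom and the covariate. The shares over all genes were not counted in these alternatives, so no conclusion about these genes is drawn from them. A joint test on 6 libraries was not run, since it needs all 3 lights. Libraries that make up a light share animals, genes such as Col15a1 and Mmp19 rest on 34 counts or fewer per library, and p-values measure spread between libraries only. No paired analysis was possible because library numbers follow the order of deposition and lights share fewer than 2 animal numbers (the labels R-23 and 2R-23 may or may not name the same animal).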

Other observations

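Col5a2 and Mmp28 each had their 3 lowest libraries spread over the 3 lights, and 2 of the 3 (blue 1 and white 3) were the same. Labels of these libraries, 2R-23 and R-23, share a part that no source used here explains. Col12a1 was among the genes for which the 2 libraries of animal 11 were the 2 highest and the 2 libraries of animal 32 the 2 lowest. Flt1, a receptor for vascular endothelial growth factors and a gene of the endothelial list, was at 203, 249 and 218 CPM in green, at 339.97, 326 and 214 CPM in blue and at 387, 374 and 299 CPM in white.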
